A study of Mus musculus with 24 samples.

Results

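The 10 mouse genes described here mark the wall between blood and brain: Mfsd2a, Slc2a1, Slco1a4, Slco1c1, Abcb1a, Tfrc, Itm2a, Ly6a, Ly6c1 and Gkn3. They were taken by gene symbol from a table of read counts for 51912 genes, and all 10 had a row. All 10 passed the filter on low counts in the dorsal, the ventral and the joint fit. The first 6 encode carriers, a pump or an uptake receptor. Itm2a, Ly6a, Ly6c1 and Gkn3 encode membrane or secreted proteins of the same endothelial cells that are not transporters by name. For 8 of the 10, the choice rested on differences between male offspring already seen in these libraries, and Slco1c1 and Abcb1a had not been named there. Values in males are therefore given as a description with no p-value. Comparisons within females and between hippocampal regions did not enter the choice and were tested.

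RNA was measured in dorsal and ventral hippocampus of 12 C57BL/6J offspring whose sires had received nicotine or saline. The 8 groups of 3 libraries were male and female offspring of nicotine-treated sires (nicotine-sired) and male and female offspring of saline-treated sires (saline-sired), each in both regions. No offspring treatment or transgene is named in the labels, and none of the sources used here gives the age of the mice, the dose or the number of sires. Each animal gave 1 dorsal and 1 ventral library, named below by the letters A, B and C within its group. The letters carry no link between groups.

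One number in the library titles differs between all 4 combinations of sex and sire treatment, with a meaning that is not stated. Whatever it stands for cannot be told apart from the groups. The 3 libraries of a group may share a sire or litter, so the errors and p-values below measure only the spread between these libraries. Counts per library summed to between 32049770 and 47486547. The saline-sired males stood apart from the other 9 libraries of their region for most of the 10 genes. Choroid plexus transcripts varied widely: their 16 genes averaged over 3 on the log2(CPM + 0.1) scale in 6 of the 12 dorsal and 2 of the 12 ventral libraries. The endothelial genes on the reference list, such as Kdr, Tek and Tie1, were all counted in every library.

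The blood-brain barrier is formed by endothelial cells that are sealed by tight junctions, take up little by vesicles and carry nutrients, hormones and iron across by dedicated proteins. Mfsd2a carries lysophospholipids that hold docosahexaenoic acid and restrains vesicle traffic, Slc2a1 (GLUT1) carries glucose, and Tfrc takes up transferrin with its iron. Slco1a4 and Slco1c1 move organic anions, among them thyroid hormone in the case of Slco1c1, while Abcb1a (P-glycoprotein) pumps drugs back to the blood. Several of these genes are not confined to vessels: neurons make Tfrc, astrocytes make Slc2a1 and Slco1c1, and choroid plexus makes Slco1c1. In whole hippocampus, fewer cells of a type and less RNA per cell cannot be told apart.

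Levels are CPM, read counts divided by the library's total and rescaled to one common total, with library totals adjusted by the trimmed mean of M values, and between genes they are compared per kilobase of exon. On that scale the median over all 24 libraries was highest for Slc2a1, at 27.8 CPM per kb. Itm2a and Ly6c1, both at 19.6 CPM per kb, and Ly6a at 16.9 came next, and their ranges over libraries overlapped. Slco1c1 (10.7), Tfrc (10.04) and Mfsd2a (9.45) formed a middle tier with overlapping ranges, followed by Abcb1a (4.65) and Slco1a4 (4.26). Gkn3 was lowest, at 1.76 CPM per kb, with between 8 and 121 counts per library. Every other gene of the 10 had at least 531 counts in each library.

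Among the nutrient carriers, Mfsd2a (ENSMUSG00000028655, chromosome 4, 122946850 to 122961188, minus strand; GRCm38 here and below) was highest in saline-sired males. In the dorsal hippocampus their libraries A, B and C had 28.5, 30.8 and 29.9 CPM. Nicotine-sired males had 15.8, 17.7 and 19.2 CPM, nicotine-sired females 19.6, 16.6 and 20.0 CPM and saline-sired females 14.96, 18.6 and 22.5 CPM. No library of those 3 groups reached the saline-sired males, and the 3 groups overlapped one another. In the ventral hippocampus the saline-sired males were again highest, with 40.0, 40.2 and 37.1 CPM. Nicotine-sired males there had 19.3, 22.7 and 26.9 CPM, nicotine-sired females 18.5, 19.3 and 23.7 CPM and saline-sired females 19.1, 25.2 and 22.8 CPM. The saline-sired male mean was 1.62 times that of the other 9 libraries in the dorsal and 1.78 times in the ventral hippocampus.

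Slc2a1 (ENSMUSG00000028645, chromosome 4, 119108711 to 119137983, plus strand) showed the same separation at a higher level. Its dorsal values were 139, 142 and 128 CPM in saline-sired males, against 74.7 to 103 CPM (median 94.6) in the other 9 libraries. Ventral values were 130, 143 and 126 CPM in saline-sired males, against 75.9 to 103 CPM (median 85.5). The groups did not overlap in either region, and the ratio of means was 1.47 dorsally and 1.495 ventrally. An antisense gene, Gm12868, shares 105 bp of exon with Slc2a1 on the opposite strand, and whether counting used strand is not given in the sources used here.

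The promoters of both genes are shown because they share a short motif and the genes moved together over the libraries. Each window runs from 250 bases before to 50 bases after the RefSeq start (GRCm38.p6), written 5′ to 3′ on the gene's strand. Capitals mark ACGTG on either strand, the core of the hypoxia response element.
Mfsd2a promoter, chr4:122961139-122961438, minus strand: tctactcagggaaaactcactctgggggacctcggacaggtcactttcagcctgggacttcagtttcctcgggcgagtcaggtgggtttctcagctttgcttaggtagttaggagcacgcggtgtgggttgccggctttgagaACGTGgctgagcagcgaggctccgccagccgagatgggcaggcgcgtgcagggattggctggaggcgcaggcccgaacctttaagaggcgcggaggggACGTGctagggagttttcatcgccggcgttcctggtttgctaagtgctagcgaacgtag
Slc2a1 promoter, chr4:119108495-119108794, plus strand: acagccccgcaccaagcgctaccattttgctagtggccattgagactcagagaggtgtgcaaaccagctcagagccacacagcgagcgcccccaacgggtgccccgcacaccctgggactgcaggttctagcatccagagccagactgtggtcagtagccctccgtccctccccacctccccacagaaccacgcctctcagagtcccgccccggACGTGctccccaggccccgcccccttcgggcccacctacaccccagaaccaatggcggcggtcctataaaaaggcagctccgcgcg
Mfsd2a held the core at 2 places and Slc2a1 at 1. The same letters were found in 19.6% of 32851 promoters, and also in those of Slco1c1 and Tfrc, whose levels did not follow Mfsd2a. Promoters were found for 9 of the 10 genes, with Ly6a the one not matched. The inverted heat shock pair GAANNTTC was in none of these promoters (7.86% of all), nor was the TCF/LEF letters ATCAAAG (3.73%). The glucocorticoid receptor half-site AGAACA was in that of Abcb1a alone (19.0% of all). The RefSeq start of that window lies 92986 bp before the GENCODE start of Abcb1a given below. The SOX core ACAAT was in the promoter of Slco1a4 (31.0%) and the ETS letters GGAAGT in those of Ly6c1, Slco1c1 and Tfrc (23.8%). All motifs were searched on both strands, and a match describes letters, not binding.

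The 2 organic anion carriers differed from each other. Slco1a4 (ENSMUSG00000030237, chromosome 6, 141805440 to 141856199, minus strand) was lowest in saline-sired males, with 21.02, 13.5 and 19.5 CPM dorsally and 18.7, 17.1 and 20.1 CPM ventrally. The other 9 libraries had 24.9 to 32.6 CPM (median 27.4) dorsally and 25.3 to 36.5 CPM (median 28.2) ventrally. Neither range touched that of the saline-sired males, whose mean was below the others by 1.56 times and 1.60 times. In the ventral hippocampus the nicotine-sired males, at 33.9, 32.3 and 36.5 CPM, also lay above the other 9 libraries.

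Slco1c1 (ENSMUSG00000030235, chromosome 6, 141524368 to 141570177, plus strand) had no such order. Saline-sired males spanned 42.6 to 79.0 CPM dorsally and 45.8 to 55.8 CPM ventrally, overlapping the range of the other libraries (47.1 to 76.0 and 49.6 to 70.7 CPM). Its level moved with choroid plexus transcripts. The 6 dorsal libraries rich in these had 56.4 to 79.0 CPM (median 65.6) and the other 6 had 42.6 to 58.7 CPM (median 47.4). In the ventral hippocampus the 2 rich libraries, both of nicotine-sired females, had 59.8 and 70.7 CPM, above the 45.8 to 58.3 CPM of the other 10.

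Abcb1a (ENSMUSG00000040584, chromosome 5, 8660077 to 8748575, plus strand) varied least of the 10, with a ratio of 1.61 between its highest and lowest library. Dorsal group means ran from 22.6 ± 2.4 CPM (SD, n = 3) in nicotine-sired males to 28.9 ± 4.6 in nicotine-sired females. Ventral means ran from 23.7 ± 2.6 CPM in saline-sired males to 28.5 ± 1.9 in nicotine-sired males. Neighbouring groups overlapped dorsally. Ventrally they did too, except that the highest saline-sired female (27.60 CPM) lay just under the lowest nicotine-sired female (27.67 CPM). Groups further apart were also separate there. Ventral saline-sired males (20.8 to 25.7 CPM) lay below nicotine-sired males (26.7 to 30.4 CPM) and nicotine-sired females (27.7 to 28.7 CPM). The paralog Abcb1b, which shares 87.7% of bases over 4000 aligned bases, stayed between 3.54 and 4.43 CPM in its 8 group means. Gm42686 shares 553 bp of exon with Abcb1a on the opposite strand, so the limit given for Slc2a1 applies here too.

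Tfrc (ENSMUSG00000022797, chromosome 16, 32608920 to 32632794, plus strand), the transferrin receptor, had the clearest gap among the carriers that were low in saline-sired males. Dorsally these had 35.6, 37.1 and 38.7 CPM, while nicotine-sired males had 77.4, 71.3 and 73.0 CPM. Female values were 61.1, 53.9 and 65.4 CPM with a nicotine-treated sire and 80.9, 82.9 and 63.2 CPM with a saline-treated one. The lowest of the other 9 libraries thus lay well above the highest saline-sired male. Ventral values were 33.8, 33.7 and 29.6 CPM in saline-sired males, 77.5, 64.9 and 76.7 in nicotine-sired males, 55.9, 50.6 and 59.5 in nicotine-sired females and 63.4, 67.6 and 57.5 in saline-sired females. The mean of the other 9 libraries was 1.88 times that of the saline-sired males dorsally and 1.97 times ventrally.

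The stability of Tfrc mRNA is set in part by iron-responsive hairpins after the stop codon, which iron regulatory proteins bind when iron is scarce. They are shown because Tfrc was the gene of the set with this well-known mRNA control. The longest coding transcript in GENCODE M21 was searched for a bulged C, a stem of 5 base pairs and the loop CAGTGN, and 4 hairpins were found in its 2458 bases after the stop codon. Capitals mark the bulged C and the loop.
Tfrc hairpin 1, chr16:32631220-32631246, plus strand: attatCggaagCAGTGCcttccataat
Tfrc hairpin 2, chr16:32631599-32631625, plus strand: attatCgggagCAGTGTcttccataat
Tfrc hairpin 3, chr16:32631664-32631690, plus strand: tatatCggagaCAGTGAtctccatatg
Tfrc hairpin 4, chr16:32631711-32631737, plus strand: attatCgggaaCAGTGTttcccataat
No other gene of the 10 held the pattern, 204 of 21877 coding genes (0.932%) held it at least once, and 4 was the most in any gene. Of the 12 other iron genes listed, 11 were tested. In males edgeR called 0 of them by sire treatment dorsally (unadjusted p was under 0.05 for 4, and 1 was called by DESeq2) and 1 ventrally (Slc40a1, the iron exporter ferroportin, 0.81 ± 0.13 log2). Their medians were 0.08 and 0.07, beside 0.00 and 0.01 over all genes tested. Slc40a1 itself had 4.86 to 5.52 CPM in ventral saline-sired males and 7.35 to 11.2 CPM in the other 9, so it lay on the same side as Tfrc.

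The surface and secreted proteins split as well. Itm2a (ENSMUSG00000031239, chromosome X, 107397099 to 107403376, minus strand), a transmembrane protein, was lowest in saline-sired males, with 22.2, 19.2 and 24.3 CPM dorsally and 21.5, 22.9 and 21.9 CPM ventrally. The other 9 libraries had 30.5 to 36.6 CPM (median 36.0) and 33.1 to 44.1 CPM (median 36.9). Gkn3 (ENSMUSG00000030048, chromosome 6, 87383256 to 87388935, minus strand), a gastrokine that marks arterial endothelium in the brain, had the largest ratio of the 10. Dorsal saline-sired males had 0.541, 0.419 and 0.476 CPM, and ventral ones 0.185, 0.295 and 0.454 CPM. Nicotine-sired males had 1.85, 1.93 and 1.42 CPM dorsally and 2.16, 1.95 and 1.94 CPM ventrally.
For Gkn3 the females lay apart from the saline-sired males too, at 1.27, 1.54 and 1.46 CPM (nicotine-sired) and 2.56, 2.44 and 1.61 CPM (saline-sired) dorsally. Their ventral values were 1.38, 1.42 and 1.48 CPM and 2.77, 2.12 and 2.56 CPM. The mean of the other 9 libraries was 3.73 times that of the saline-sired males dorsally and 6.35 times ventrally. With as few as 8 counts in a library, the counting error of Gkn3 in saline-sired males is larger than for the other genes.

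Ly6a (ENSMUSG00000075602, chromosome 15, 74994877 to 74998031, minus strand) and Ly6c1 (ENSMUSG00000079018, chromosome 15, 75044018 to 75048830, minus strand) encode small surface proteins of the Ly6 family that mark endothelial cells of mouse brain, and were highest in saline-sired males. Ly6a had 31.5, 33.5 and 26.2 CPM dorsally and 30.2, 33.7 and 27.4 CPM ventrally in saline-sired males. The other 9 libraries had 16.5 to 29.6 CPM dorsally and 12.9 to 22.5 CPM ventrally. Ly6c1 had 45.7, 46.3 and 39.9 CPM dorsally and 43.8, 48.9 and 41.2 CPM ventrally in these males, against 23.9 to 43.4 CPM and 22.8 to 34.0 CPM.
The ventral groups were separate for both genes. Dorsally 1 library, that of nicotine-sired female A (29.6 CPM of Ly6a, 43.4 CPM of Ly6c1), reached into the range of the saline-sired males. That library also had the highest endothelial reference level of all 24, at 4.10 on the log2 scale, and its part in the overlap was not tested. Ly6c1 shares 97.6% of bases over 822 aligned bases with Ly6c2, so its counts are uncertain where reads could fall to either. Ly6c2 itself had group means of 1.21 to 4.16 CPM, the 2 highest of them in saline-sired males.

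**Figure D1:**
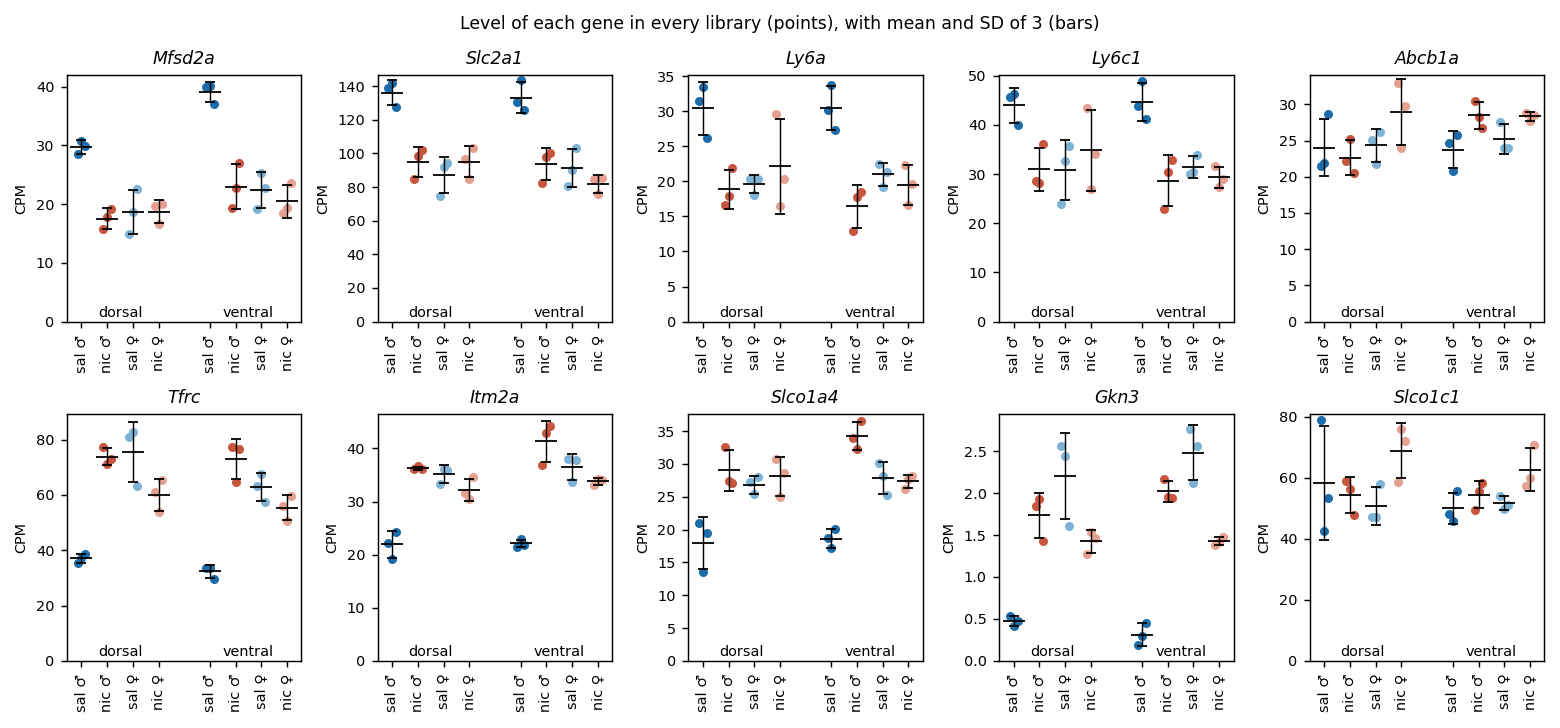
CPM of each gene in the 24 libraries (points, vertical axis from 0), by sex, sire treatment (nic, nicotine; sal, saline) and region, with the mean and SD of 3 libraries (bars). Saline-sired males (dark blue) lie above the other groups for Mfsd2a and Slc2a1 and below them for Tfrc, Itm2a, Slco1a4 and Gkn3. They overlap the joint range of the other groups for Slco1c1, Abcb1a and dorsal Ly6a and Ly6c1.

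Counted over the set, saline-sired males lay outside the range of the other 9 libraries for 6 of 10 genes dorsally and 8 of 10 ventrally. Dorsally 2 were higher (Mfsd2a, Slc2a1), where 3.11% of the 19130 genes tested were, and 4 were lower (Slco1a4, Tfrc, Itm2a, Gkn3), where 2.54% were. Ventrally the higher ones were joined by Ly6a and Ly6c1 (background 2.9% of 19224 genes), and the same 4 were lower (2.21%). These counts describe the choice of genes as much as the samples, since 8 were chosen from males. The same genes were outside when the libraries rich in choroid plexus transcripts were left out (2 saline-sired males against 4 others dorsally, 3 against 7 ventrally), an alternative chosen after seeing the data. Ventral nicotine-sired males lay above their 9 others for 1 of 10 genes, Slco1a4 (background 1.79%).

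Markers of other vessel cells moved with the saline-sired males in part. The 7 smooth muscle genes summed to 22.97 to 26.5 CPM in dorsal saline-sired males and to 26.6 to 51.4 CPM in the other 9 libraries. The ventral sums were 27.5 to 28.9 CPM and 28.5 to 55.4 CPM, which overlapped. Summed pericyte genes (10) overlapped too, at 170 to 187 against 179 to 240 CPM dorsally and 201 to 207 against 205 to 261 CPM ventrally. By sire treatment in males, 2 of the 10 pericyte genes were called higher in each region, the pericyte ATPase gene Atp13a5 (0.75 ± 0.17 and 0.76 ± 0.14) in both, Vtn (0.49 ± 0.11) dorsally and Notch3 (0.54 ± 0.10) ventrally. The list's medians were 0.35 and 0.27. The 20 endothelial reference genes summed to 340 to 377 CPM against 348 to 484 CPM dorsally and to 338 to 367 against 362 to 419 CPM ventrally. Averaged on the log2(CPM + 0.1) scale, ventral saline-sired males lay wholly below the other 9 libraries for that list, at 3.46 to 3.60 against 3.62 to 3.87. They also did so for the other barrier transporters (4.02 to 4.14 against 4.24 to 4.47), the vesicle and receptor genes (3.93 to 4.01 against 4.07 to 4.37) and the Wnt genes (3.48 to 3.56 against 3.65 to 3.83), all described below. This was not confined to vessel lists. On the same scale, saline-sired males lay below for oligodendrocyte genes ventrally (7.10 to 7.23 against 7.25 to 7.55). They did so for microglial genes dorsally (5.071 to 5.090 against 5.092 to 5.322). Both lists overlapped in the other region. Astrocyte, neuron and smooth muscle genes overlapped in both. Summed neuron genes were lower dorsally (8095 to 8924 against 8966 to 10568 CPM). Averaged on the log2(CPM + 0.1) scale, venous genes lay wholly above in both regions. Their sums overlapped, at 121 to 161 against 107 to 131 CPM dorsally and 149 to 162 against 141 to 161 CPM ventrally. By sire treatment in males the venous medians were -0.14 dorsally and 0.18 ventrally. The 1 gene called there in each region was Lcn2, whose values are given below. Every smooth muscle, pericyte and endothelial reference gene had counts in every library. The part of smooth muscle and pericyte genes in the values of the 10 genes was not tested. The endothelial level was used as a covariate. In log2 CPM it was 3.439 to 3.576 in saline-sired and 3.582 to 3.670 in nicotine-sired males dorsally. Ventrally it was 3.439 to 3.589 and 3.602 to 3.734. Because it did not overlap between these male groups, the fit cannot tell it apart from sire treatment. With this covariate, some male log2 fold changes by sire treatment moved by at least the within-group SD of log2 CPM and kept their sign. These were Mfsd2a (-0.88 ± 0.12) and Ly6c1 (-0.70 ± 0.15) dorsally and Itm2a (0.81 ± 0.11) ventrally. Ventral Slco1c1 in males changed sign, from 0.13 ± 0.09 to -0.10 ± 0.10. Mfsd2a, Slc2a1, Ly6a and Ly6c1 were above and Tfrc, Itm2a, Slco1a4 and Gkn3 below in the same libraries.

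**Figure D2:**
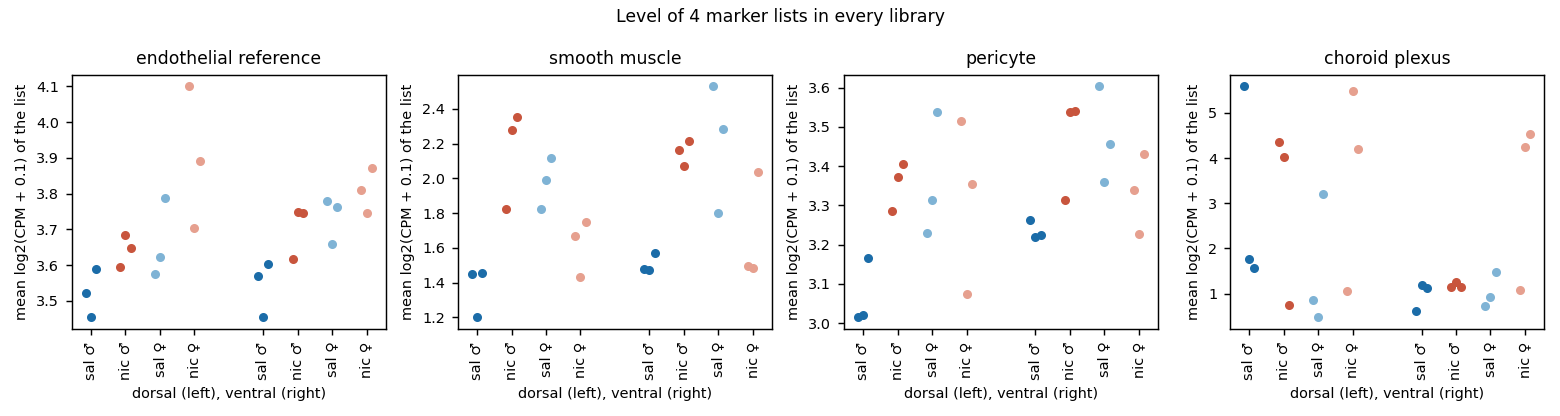
Mean level of 4 marker lists, in log2(CPM + 0.1), in each of the 24 libraries (points) by sex, sire treatment and region (colours and labels as for the single genes). Saline-sired males are among the lowest libraries for endothelial reference, smooth muscle and pericyte genes, and choroid plexus genes are above 3 in 6 dorsal and 2 ventral libraries.

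In males, nicotine-sired over saline-sired, the log2 fold changes (± SE) restate those gaps. Dorsally they were -0.76 ± 0.13 for Mfsd2a, -0.52 ± 0.11 for Slc2a1, -0.69 ± 0.19 for Ly6a and -0.51 ± 0.19 for Ly6c1. In the opposite direction they were 0.99 ± 0.10 for Tfrc, 0.73 ± 0.08 for Itm2a, 0.69 ± 0.14 for Slco1a4 and 1.85 ± 0.24 for Gkn3. Slco1c1 (-0.10 ± 0.20) and Abcb1a (-0.08 ± 0.14) were within 1 SE of 0.
Ventrally the values were -0.76 ± 0.13 for Mfsd2a, -0.50 ± 0.10 for Slc2a1, -0.88 ± 0.14 for Ly6a and -0.63 ± 0.12 for Ly6c1. They were 1.18 ± 0.09 for Tfrc, 0.91 ± 0.08 for Itm2a, 0.89 ± 0.08 for Slco1a4 and 2.71 ± 0.26 for Gkn3. Abcb1a stood at 0.27 ± 0.09 and Slco1c1 at 0.13 ± 0.09.
The genes past the threshold of 0.05 on adjusted p were 4 higher and 2 lower dorsally, where 0.47% and 1.31% of all genes tested were, and 4 higher and 4 lower ventrally (1.82% and 1.39%). Nothing is read from these counts, because this contrast chose 8 of the genes. The 2 inside the threshold ventrally but not dorsally, Ly6a and Ly6c1, had dorsal values of the same sign.
An antisense ratio differed between the ventral male groups. Whether it reflects the quality of the libraries was not tested. Counts of 989 noncoding genes, divided by those of the 823 abundant coding genes on the opposite strand, came to 0.304% to 0.354% in ventral nicotine-sired and 0.178% to 0.210% in ventral saline-sired males. With this ratio as a covariate, edgeR called 0 genes of the whole table in ventral males, in place of 617 (821 had an unadjusted p under 0.05, and DESeq2 was not run with it). The 8 ventral calls given above were among those lost. Because the ratio did not overlap between these groups, the fit cannot tell it apart from sire treatment. The values kept their direction and their errors grew, as in -1.09 ± 0.44 for Mfsd2a and 0.95 ± 0.32 for Tfrc. Dorsally the ratios of the male groups overlapped, at 0.191% to 0.338% and 0.170% to 0.322%, and the count fell from 341 to 144.

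Within females, none of the 10 genes passed edgeR's quasi-likelihood test with Benjamini-Hochberg adjustment, in either region. The background was low as well: 0.0314% of dorsal and 0.0312% of ventral genes were called. Unadjusted p was under 0.05 for 3 of 10 genes dorsally (13.3% of all genes) and 2 of 10 ventrally (13.9%). The largest difference was that of Gkn3, in the direction opposite to males, at -0.62 ± 0.22 dorsally (edgeR adjusted p = 0.279) and -0.81 ± 0.22 ventrally (edgeR adjusted p = 0.159). Its 3 nicotine-sired libraries were below all 3 saline-sired ones in both regions, as 10.1% of genes were dorsally and 10.1% ventrally. DESeq2's Wald test called Gkn3 ventrally (-0.81, DESeq2 adjusted p = 0.0465) and no other of the 10 in either region.
Tfrc was at -0.32 ± 0.10 dorsally (edgeR adjusted p = 0.230) and -0.18 ± 0.09 ventrally (edgeR adjusted p = 0.392), also opposite to males. Slco1c1 was at 0.45 ± 0.20 dorsally (edgeR adjusted p = 0.370) and 0.28 ± 0.09 ventrally (edgeR adjusted p = 0.230), its nicotine-sired libraries being above the saline-sired ones in both regions (8.54% and 9.75% of genes). The choroid plexus list had medians of 2.51 dorsally and 3.17 ventrally in this comparison, with 0 of its 16 and 0 of its 15 tested genes called by edgeR. Unadjusted p was under 0.05 for 0 and 14 of them, and DESeq2 called 0 and 11. When the choroid plexus level entered the fit as a covariate, Slco1c1 was at 0.21 dorsally and 0.15 ventrally.

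For the other genes approximate 95% intervals (1.96 SE) are given. They can be too narrow: that of Tfrc ventrally, -0.367 to -0.002, left out 0 at an unadjusted edgeR p of 0.0668. Mfsd2a was at 0.01 (interval -0.25 to 0.27) dorsally and -0.13 (-0.39 to 0.13) ventrally. The male values, -0.76 ± 0.13 in both regions, lie outside these intervals. Male values chose this gene, so no difference between the sexes is read from that. Slc2a1 was at 0.14 (-0.07 to 0.35) and -0.16 (-0.36 to 0.04). Slco1a4 was at 0.08 (-0.20 to 0.35) and -0.03 (-0.19 to 0.13), and Itm2a at -0.12 (-0.28 to 0.04) and -0.12 (-0.27 to 0.04).
Ly6a and Ly6c1 had wider dorsal intervals, -0.18 to 0.56 for both, and ventral ones of -0.38 to 0.16 and -0.34 to 0.13. Abcb1a was at 0.26 (-0.01 to 0.53) dorsally and 0.17 (-0.00 to 0.34) ventrally, where its nicotine-sired libraries were above the saline-sired ones. Several markers differed between the same female groups. The antisense ratio was 0.210% to 0.235% in nicotine-sired against 0.194% to 0.199% in saline-sired females dorsally, and 0.219% to 0.255% against 0.197% to 0.217% ventrally, with no overlap. With it as a covariate, Gkn3 was at -0.65 and -0.84 and Tfrc at -0.32 and -0.23, and none of the 10 genes was called. Summed blood cell genes were 374 to 632 against 220 to 321 CPM dorsally and 420 to 485 against 283 to 374 CPM ventrally, also apart. All 5 blood genes tested were higher (medians 0.96 and 0.59). EdgeR called 0 of them, DESeq2 called 5 in each region, and unadjusted p was under 0.05 for 5 in each. The 7 smooth muscle genes had medians of -0.40 and -0.64, with 0 called by edgeR or DESeq2 and 1 and 4 with an unadjusted p under 0.05. The part of blood and smooth muscle RNA in the female values of Tfrc and Gkn3 was not tested.
The dorsal values of Ly6a, Ly6c1, Mfsd2a and Slco1a4 in females changed sign without nicotine-sired female A, to -0.09, -0.01, -0.03 and -0.01.

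The difference between the sexes in the log2 fold change, males minus females, describes the same contrast. It was largest for Gkn3, at 2.47 ± 0.33 dorsally and 3.52 ± 0.34 ventrally, and for Tfrc, at 1.31 ± 0.14 and 1.36 ± 0.13. Itm2a had 0.84 ± 0.12 and 1.03 ± 0.11, Slco1a4 0.62 ± 0.20 and 0.92 ± 0.12, and Mfsd2a -0.77 ± 0.19 and -0.63 ± 0.18. Slc2a1 had -0.66 ± 0.15 and -0.34 ± 0.14, Ly6a -0.88 ± 0.27 and -0.78 ± 0.19, and Ly6c1 -0.70 ± 0.26 and -0.53 ± 0.17. All of these draw on the saline-sired males, so they add no separate evidence to the gaps above.

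**Figure D3:**
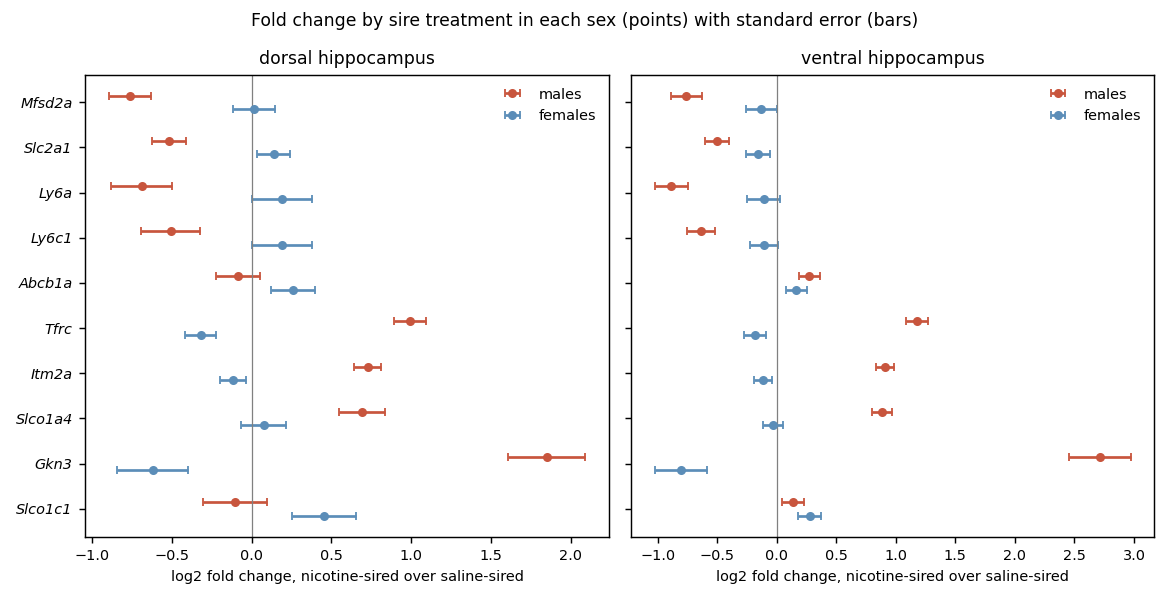
Log2 fold change, nicotine-sired over saline-sired, of each gene in males (red) and females (blue), dorsal (left) and ventral (right), with the standard error as bars (3 libraries per group). Male values lie far from 0 in both directions for 8 genes, and Gkn3 has the female values farthest from 0.

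The region comparison asked how ventral differs from dorsal hippocampus over all 12 animals. Its main fit compared group means and did not pair the regions of an animal. Mfsd2a was higher in the ventral hippocampus, by 0.29 ± 0.07 log2 (edgeR adjusted p = 0.00324), in 11 of 12 animals. Tfrc was lower there, by -0.15 ± 0.05 (edgeR adjusted p = 0.0249), and higher in only 2 of 12 animals. These 2 of 10 genes compare with 29.2% of 19849 genes called, a share below that background. The call of Tfrc ended without nicotine-sired male B, saline-sired female A or saline-sired male C (edgeR adjusted p = 0.0544, 0.0602 and 0.0784), while its value stayed between -0.17 and -0.13. The other 8 genes ranged from -0.09 for Slco1c1 to 0.08 for Abcb1a and were not called.

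Within saline-sired animals alone, Mfsd2a (0.32 ± 0.10, edgeR adjusted p = 0.0305) and Tfrc (-0.24 ± 0.07, edgeR adjusted p = 0.0306) were the 2 of 10 called, against 14.5% of all genes. Both calls ended without saline-sired male A, B or C or saline-sired female A or B (edgeR adjusted p from 0.0546 to 0.140), with Mfsd2a between 0.27 and 0.35 and Tfrc between -0.26 and -0.18 in those fits. Within nicotine-sired animals 0 of 10 were called, against 16.9% of genes. There Mfsd2a was at 0.26 ± 0.10 (edgeR adjusted p = 0.0828) and Itm2a at 0.13 ± 0.06 (edgeR adjusted p = 0.132), the 2 with an unadjusted p under 0.05 (29.4% of all genes), and DESeq2 called 0 of 10. With the animal as a block, which pairs the 2 regions of each mouse, Mfsd2a (0.25, edgeR adjusted p = 0.00765), Slc2a1 (-0.12, edgeR adjusted p = 0.0220) and Ly6a (-0.18, edgeR adjusted p = 0.0312) were called in nicotine-sired animals, where 23.4% of all genes were in that fit. Whether the regional difference itself differs by sire treatment was not tested.

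Animals differed in a way that both of their regions shared for some genes. About the group means, the dorsal and ventral log2 levels of Slc2a1 correlated over the 12 animals with r = 0.91, and those of Ly6a with r = 0.82. The values were 0.63 for Mfsd2a, 0.62 for Tfrc and 0.60 for Ly6c1, but -0.25 for Itm2a and -0.14 for Gkn3. These are descriptions of 12 animals in 4 groups, and the libraries of an animal share its dissection and tissue.

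**Figure D4:**
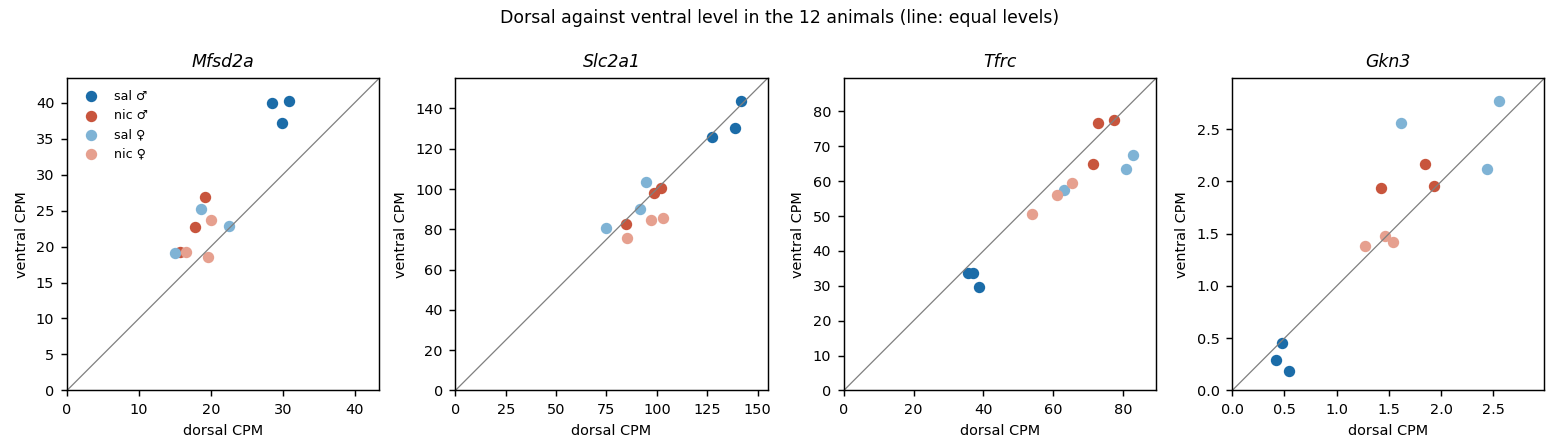
Ventral against dorsal CPM of Mfsd2a, Slc2a1, Tfrc and Gkn3 in the 12 animals (points, coloured by sex and sire treatment), with the line of equal levels. Mfsd2a lies above the line in 11 of 12 animals, Tfrc below it in 10, and the 3 saline-sired males form a cluster of their own in each panel.

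Over all 24 libraries, log2 levels fell into 2 sets that follow the saline-sired males. Slco1a4, Tfrc, Itm2a and Gkn3 correlated with one another with r between 0.82 and 0.92. About the group means these r ran from -0.07 for Tfrc with Itm2a to 0.43 for Slco1a4 with Itm2a. For Mfsd2a, Slc2a1, Ly6a and Ly6c1, r was between 0.70 and 0.91. About the group means it ran from 0.35 for Mfsd2a with Ly6a and 0.52 for Slc2a1 with Ly6a to 0.79 for Ly6a with Ly6c1 and 0.80 for Slc2a1 with Ly6c1. Points share libraries and scaling, and Ly6a and Ly6c1 are 84.8% alike over 854 aligned bases.

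The genes most like each member were sought among 13012 coding genes, by Pearson r over the 24 libraries. Slc2a1 was closest to Tmem252 (0.93), the kinase gene Map3k6 (0.92) and the xanthine dehydrogenase gene Xdh (0.91). Mfsd2a was closest to the connexin gene Gjb6 (0.91), the volume-regulated channel gene Lrrc8a (0.90) and Cmtm3 (0.89). Ly6a and Ly6c1 shared Pglyrp1, a peptidoglycan recognition protein, as their closest (0.92 and 0.88), followed by the transglutaminase gene Tgm2 (0.88) for Ly6a and Lrg1 (0.87) for Ly6c1.
On the other side, Itm2a and Slco1a4 shared the transcription factor gene Sox21 (0.94 and 0.90) and the caveolin gene Cav1 (0.91 and 0.90). Tfrc was closest to the RNA-binding protein genes Hnrnpdl (0.94) and Rbmx (0.91) and the kinase gene Eef2k (0.92), and Gkn3 to the nuclear receptor gene Nr2e1 (0.90). For Abcb1a the closest named gene was the endothelial phosphatase Ptprb (0.87), and for Slco1c1 it was Eps8l2 (0.90). The 6 libraries of saline-sired males, which stand apart, enter every one of these values.

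Other genes of the pathway were listed by role. Of 20 further barrier transporters, 1 was called higher in nicotine-sired than in saline-sired males dorsally and 0 lower, and 5 were higher and 1 lower ventrally. The dorsal one was Slc16a1, the lactate carrier MCT1, at 0.53 ± 0.08. It had 28.2 to 32.6 CPM in saline-sired males and 39.1 to 46.8 CPM in the other 9 libraries. Ventrally, beside Slc40a1, Slc16a1 was at 0.56 ± 0.10, the monocarboxylate family gene Slc16a4 at 2.04 ± 0.26, the organic anion carrier Slc22a8 at 0.84 ± 0.19 and the taurine carrier Slc6a6 at 0.44 ± 0.07. The efflux pump Abcc4 was at -0.53 ± 0.13. The list's medians were 0.12 dorsally and 0.23 ventrally, beside 0.00 and 0.01 over all genes.

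Vesicle and receptor genes (12) had 2 calls in males dorsally, Cav1 at 0.61 ± 0.11 and the insulin-like growth factor receptor Igf1r at -0.33 ± 0.06, and 1 ventrally, Cav1 at 0.74 ± 0.11. Cav1 forms caveolae, the vesicles that Mfsd2a restrains, and it had 8.41 to 10.6 CPM in dorsal saline-sired males and 11.5 to 15.2 CPM in the other 9 libraries. Of 19 genes of the Wnt pathway that maintains the barrier, edgeR called 0 in males dorsally (unadjusted p was under 0.05 for 7, and 0 were called by DESeq2) and 2 ventrally, Apcdd1 (0.53 ± 0.10) and the ligand Ndp (0.60 ± 0.14). Of the 20 endothelial reference genes, edgeR called 0 dorsally (unadjusted p was under 0.05 for 8, and 2 were called by DESeq2) and 3 ventrally: the receptors Tek (0.60 ± 0.10), Kdr (0.58 ± 0.10) and Tie1 (0.62 ± 0.12). Among 11 arterial genes edgeR called 0 in either region, DESeq2 called 0, and 0 dorsally and 1 ventrally had an unadjusted p under 0.05. Among 9 venous genes tested, Lcn2, an iron-binding lipocalin made in inflammation, was called lower in both. It had 8.45 to 29.3 CPM dorsally and 9.88 to 19.7 CPM ventrally in saline-sired males and at most 0.537 and 0.291 CPM in the other 9. Among 7 smooth muscle genes, Myh11, Myl9 and Acta2 were called higher in both regions (median 0.87 dorsally, 0.76 ventrally).

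Relatives of Ly6a and Ly6c1 were listed as well. Of 13 other Ly6 family genes 8 were tested dorsally and 7 ventrally, and edgeR called 0 in males in both regions (3 and 2 passed 0.05 on the unadjusted p, and DESeq2 called 0). Some genes of cells outside the vessel wall were called in males too. Of all genes tested, 0.47% were called higher and 1.31% lower dorsally, and 1.82% and 1.39% ventrally. Of 9 microglial genes P2ry12, a purinergic receptor, was called in both regions (0.54 ± 0.08 and 0.79 ± 0.12) and Cx3cr1, a chemokine receptor, ventrally (0.33 ± 0.08). Of 8 oligodendrocyte genes Opalin was called ventrally (0.998 ± 0.10). Of 9 astrocyte genes the water channel Aqp4 (0.46 ± 0.09) and the transcription factor Sox9 (0.45 ± 0.10) were called ventrally. Blood haemoglobin genes Hba-a1 (0.53 ± 0.12) and Hba-a2 (0.52 ± 0.12) were also called ventrally, and immature red cells make Tfrc. Their part in the values of Tfrc was not tested.

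In females, edgeR called 0 genes of any of these lists in either region. Of the 188 list genes tested dorsally and 186 ventrally, 33 and 54 passed 0.05 on the unadjusted p, with 9 and 24 called by DESeq2. Between regions over all animals, 2 further transporters were higher ventrally, the amino acid carrier chains Slc7a5 (0.20 ± 0.04, edgeR adjusted p = 0.000378) and Slc3a2 (0.18 ± 0.03, edgeR adjusted p = 0.000302), and 3 were lower: Slc38a5, Abcc4 and Slc6a6. Beside Tfrc, the iron genes had transferrin (Trf) lower ventrally at -0.77 ± 0.09 (edgeR adjusted p = 2.61e-06) and ferritin heavy chain (Fth1) at -0.51 ± 0.07 (edgeR adjusted p = 6.78e-06), both abundant in oligodendrocytes. The second transferrin receptor gene, Tfr2, was higher at 0.79 ± 0.08 (edgeR adjusted p = 5.58e-07). All 8 oligodendrocyte genes listed were called lower ventrally as well (median -0.81), and their part in the values of Trf, Fth1 and Tfrc was not tested. The Wnt ligands Wnt7a (0.55 ± 0.09) and Wnt7b (0.70 ± 0.07), which act on brain endothelium, were both higher ventrally, among 4 higher and 4 lower of 19 in that list. Among the others were the signal transducers Ctnnb1 and Lef1 (higher) and Lrp6, Tnfrsf19 and Nkd1 (lower). Of the 20 endothelial reference genes Egfl7 (0.25 ± 0.06) and Kdr (0.16 ± 0.06) were higher and the junction gene Ocln (-0.38 ± 0.09) lower, and of 11 arterial genes Efnb2 and Mgp were higher and Unc5b and Hey1 lower.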

How the data were processed

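Hippocampal RNA was sequenced with a stranded mRNA kit as 150 bp single-end reads over 3 lanes (per the labels' protocols). With no role given, TopHat2 2.1.0, Cufflinks and Cuffdiff 2.2.1.3 appear in the submitters' processing notes, beside the build GRCm38. The counting tool, its strand setting and its annotation were not stated in those sources. The authors deposited raw read counts per gene for 51912 genes, of which 51719 identifiers matched GENCODE M21 and 193 did not. Sums per library ran from 32049770 to 47486547 (median 39578834), and no 2 libraries were copies (at least 24915 genes differed).

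The test was that of edgeR 4.0.16, run in R 4.3.3 beside limma 3.58.1, with TMM scaling, its default filter on low counts, a robust quasi-likelihood F test, 2-sided, and Benjamini-Hochberg adjustment over all genes tested, with a threshold of 0.05. Treatment was fitted on the 12 libraries of a region (19130 dorsal and 19224 ventral genes) and region on all 24 (19849 genes). The steps were tested on simulated data. The alternatives were DESeq2 1.42.0, other scaling, a non-robust fit, all genes with a count, a replicate block, the spread of all 24 libraries, 3 covariates and leaving out each library or animal.

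The dorsal and ventral library of a title prefix come from 1 animal. The main region tests fitted 1 mean per group and did not use this pairing, which entered only the fit with the animal as a block. About the group means, the correlation over genes between the dorsal and ventral library of an animal had a median of 0.14 over 12 animals (-0.06 to 0.48). It exceeded 0.1 in 9. Standard errors are those of edgeR's fold change. The 10 members and the 17 other gene lists were chosen with earlier results of these data known. The rule was to name list genes past the threshold, and where none passed up to 3 with the smallest p. In the region comparison, called genes of lists for cells other than endothelium, and of the vesicle, venous, Wnt and Ly6 lists, are not all named, and no gene was named where none passed. For likeness, the 3 coding genes with the highest Pearson r to each member were taken among those with a mean of at least 1 CPM, on log2(CPM + 0.1), leaving out genes with a Gm number or Rik name. Python 3.11.15, pandas 2.3.3 and matplotlib 3.10.9 made the tables and plots.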

Additional observations from a re-analysis of the deposited data

Results flagged for a closer look

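By a rule on single libraries, the sire treatment difference had opposite signs in the sexes for 3 of the 10 genes. All 3 nicotine-sired male libraries lay above the saline-sired male mean of their region. All 3 nicotine-sired female libraries lay below the saline-sired female mean. The difference, males minus females, was 1.31 for Tfrc, 0.84 for Itm2a and 2.47 for Gkn3 dorsally, in log2. Ventrally it was 1.36 for Tfrc, 1.03 for Itm2a and 3.52 for Gkn3. These differences were not tested, because the male values chose the genes. The rule was applied to the 10 genes only. The share of all genes that meet it was not counted, so nothing is read from the number of genes. In females Itm2a was at -0.12 in both regions, with intervals that include 0.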

How the results depend on the processing

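In all, 1830 values of the 10 genes were recomputed under an alternative: 1757 were counted as unchanged and 36 changed sign. For females and regions, unchanged meant the same direction and side of the threshold. For males and the sex difference it meant the same direction and a move below the within-group SD of log2 CPM. The threshold was not checked there, so lost calls in males did not count as a change. The counts of genes over the whole table moved more. By edgeR, sire treatment called 6 genes in dorsal females, 341 in dorsal males and 428 in their difference, and 6, 617 and 205 ventrally. DESeq2 called 275, 874 and 1272 dorsally, and ventrally 291 in females and 533 in the sex difference. Without the low-count filter, 14 dorsal and 99 ventral genes were called in females. The spread of all 24 libraries gave 89, 647 and 1137 dorsally and 19 in ventral females. A choroid plexus covariate gave 2 in dorsal females, 279 in the dorsal sex difference, 42 in ventral females and 106 in the ventral sex difference. The endothelial level gave 813 in dorsal males and 1048 in the dorsal sex difference, and 2, 144 and 101 ventrally. In males it did not overlap between the sire groups of a region, so those fits cannot tell it apart from sire treatment. The antisense ratio gave 3 in dorsal females and 144 in dorsal males, and 0, 0 and 0 ventrally. In these cases the cause was not tested.

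Over single libraries left out, the counts ran from 0 to 12 in dorsal females, 87 to 624 in dorsal males, 76 to 837 in the dorsal sex difference, 0 to 114 in ventral females, 284 to 671 in ventral males and 84 to 463 in the ventral sex difference. Over single animals left out, region called 1097 to 3403 genes in saline-sired, 2117 to 3576 in nicotine-sired and 4706 to 6178 in all animals.

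With the animal as a replicate block, which pairs both regions of a mouse, region called 4435 genes in saline-sired animals in place of 2877, and 4648 in place of 3347 in nicotine-sired animals. It changed no call of the 10 genes in saline-sired or all animals. The title letter as a replicate block is no pairing by the labels. It gave 2, 164 and 217 genes by sire treatment dorsally and 27 in ventral females. Within nicotine-sired animals, Mfsd2a was also called by region with the endothelial covariate (0.27, edgeR adjusted p = 0.0433) and without saline-sired female A (0.25, edgeR adjusted p = 0.0461).

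Values that changed sign lay between -0.21 and 0.18 after the change. With the choroid plexus covariate, the region difference was 0.046 for Slco1c1 in saline-sired, 0.049 in nicotine-sired and 0.048 in all animals. In saline-sired animals it was -0.016 for Abcb1a, -0.043 for Ly6a and -0.033 for Ly6c1, and with the endothelial covariate -0.0036 for Slc2a1, -0.032 for Abcb1a, -0.011 for Ly6a and -0.028 for Ly6c1. In dorsal females the endothelial covariate gave -0.21 for Mfsd2a (main fit 0.01), -0.11 for Slco1a4 (0.08) and -0.036 for Abcb1a (0.26). It gave -0.17 for Ly6a (0.19) and -0.19 for Ly6c1 (0.19). Ventrally Ly6a in females was 0.061 with the choroid plexus covariate, and Slco1c1 in males -0.097 with the endothelial one. Leaving out a library, dorsal female values ran from -0.13 to 0.17 for Mfsd2a, -0.0061 to 0.15 for Slco1a4, -0.092 to 0.36 for Ly6a and -0.015 to 0.34 for Ly6c1, and ventral Slco1a4 from -0.090 to 0.025. In dorsal males they ran from -0.28 to 0.18 for Slco1c1 and -0.17 to 0.052 for Abcb1a. Leaving out an animal, the region difference of Gkn3 over all ran from -0.15 to 0.035. In saline-sired animals it ran from -0.17 to 0.058 for Slco1c1, -0.029 to 0.060 for Abcb1a, -0.017 to 0.081 for Itm2a, -0.034 to 0.057 for Ly6c1 and -0.0024 to 0.041 for Slc2a1.

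The 6 dorsal and 8 ventral genes outside the range of the other 9 libraries kept those counts without the libraries rich in choroid plexus transcripts, and on CPM without TMM scaling. Both settings were chosen after seeing the data. Depth limits Gkn3 most, with as few as 8 counts in a library.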
